A study of Caenorhabditis elegans with 24 samples.

Results

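A set of 8 regulators of the *C. elegans* germline stem cell pool was followed across all 24 RNA-seq libraries of a study on insulin/IGF-1 signaling and the heat shock factor HSF-1 in germ cells. They are the Notch receptor gene *glp-1*, its targets *lst-1* and *sygl-1*, the RNA regulators *gld-1*, *gld-2*, *gld-3* and *gld-4*, and the Nanos-family gene *nos-3*. The 8 genes were chosen by name, matched by WormBase gene identifier, and found in both deposited tables, among 12958 genes in the HSF-1 depletion table and 14206 genes in the germline nuclei table. All 8 passed the filter on low values in both tables. In the depletion experiment, whole adults grown on 1 mM auxin were compared with adults on 0.25% ethanol, either for 16 h from the young adult stage or for 88 h from egg lay, with 3 libraries in each of the 4 groups. In the nuclei experiment, enriched germline nuclei and whole worms, both from young adults, were each taken from *daf-2(e1370)* and from wild-type animals, again with 3 libraries in each of the 4 groups.

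Every depletion library, and the *daf-2(e1370)* nuclei and worms, came from strain JTL642, which holds the reduction-of-function allele e1370 of the insulin/IGF-1 receptor gene *daf-2*. The wild-type animals were strain JTL621, for which the labels list *unc-119(ed3)* and no *daf-2* allele. Both strains also carry *hsf-1* fused to a degron and GFP (ljt3) and the transgene ieSi38, in which the germline promoter of *sun-1* drives TIR1::mRuby and which holds Cbr-*unc-119*(+). TIR1 removes the tagged protein when auxin is present, so the auxin groups lack HSF-1 in the germline only, and ethanol is the mock treatment. The labels name no auxin for the nuclei experiment, although all of its animals, wild type included, carry tagged *hsf-1*. Each library pools many animals. The study calls its replicates biological, but neither it nor the labels say whether libraries of a group came from separate cultures. The p-values thus measure only the spread between these samples.

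In the worm gonad, the distal tip cell presents Notch ligands to GLP-1 on the neighbouring germ cells, and GLP-1 signaling keeps these cells dividing. LST-1 and SYGL-1 are made in the stem cell pool in response to GLP-1 and act with the PUF RNA-binding proteins FBF-1 and FBF-2, which repress mRNAs that promote meiosis. Opposing them, GLD-1 represses translation of many germline mRNAs, GLD-2 is a cytoplasmic poly(A) polymerase whose partner is GLD-3, a relative of Bicaudal-C, GLD-4 is another cytoplasmic poly(A) polymerase, and NOS-3 acts in the branch of GLD-1. Much of this control is exerted on translation and poly(A) tails, which mRNA levels do not report.

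The genes lie on the plus strand of WBcel235, the build to which the reads were aligned, at the positions of the Ensembl annotation. On chromosome I are *lst-1* (WBGene00003083, 10588501 to 10590465), *sygl-1* (WBGene00012104, 12483809 to 12486235), *gld-1* (WBGene00001595, 7695681 to 7698222), *gld-2* (WBGene00001596, 6369748 to 6386194) and *gld-4* (WBGene00014115, 9118115 to 9123181). On chromosome II are *gld-3* (WBGene00001597, 7132643 to 7137522) and *nos-3* (WBGene00003785, 9746316 to 9750462), and on chromosome III is *glp-1* (WBGene00001609, 9092241 to 9099698). Exons of *glp-1*, *gld-2* and *nos-3* overlap exons of a gene on the minus strand (ZK507.1, *klu-2* and Y53C12B.7), and a small nucleolar RNA gene, ZK858.10, lies in *gld-4*. The libraries kept the strand, but no strand option is among the counting settings that the study lists, so reads of these partners cannot be told apart from those of the members. The values are log2 CPM (read counts scaled to a common library size), unlogged here for levels, and fold changes are differences of log2 CPM tested with limma.

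Reads in the tables came to 20.9 to 38.0 M (1e6 reads) per depletion library, 21.9 to 28.8 M per whole worm library and 13.9 to 19.3 M per nuclei library. The effective library sizes, read back from the spacing of low values, were 34.0 to 66.0 M for whole worms and 6.38 to 11.3 M for nuclei. CPM of nuclei thus stand above their share of the reads and those of worms below it. Folds between nuclei and worms rest on this scaling. Ribosomal RNA took 38.0% to 72.9% of the reads of nuclei libraries, with the lowest value in *daf-2(e1370)* replicate 2, while in whole worms it took 9.37%, 13.3% and 11.4% in *daf-2(e1370)* and 30.02%, 15.8% and 35.1% in wild type, which do not overlap. *hsf-1* mRNA does not check a depletion that acts on protein. The chaperone gene *hsp-90*, a target of HSF-1, had 1394 to 1540.4 CPM in the 6 auxin libraries, against 2712 to 2960 CPM in the 6 ethanol libraries. The 10 germ cell markers listed summed to 844 to 1130 CPM in *daf-2(e1370)* nuclei and 851 to 1029 CPM in wild-type nuclei, beside 678 to 1096 and 674 to 903 CPM in the whole worms, while 10 intestine markers summed to 374 to 724 CPM in *daf-2(e1370)* nuclei and 364 to 419 CPM in wild-type nuclei, beside 3348 to 6919 and 1290 to 2643 CPM in the worms. Replicate 1 of both whole worm groups stood apart for several members, and the genotype comparison in worms is also given without it. With *glp-1*, for example, it held 24.6 CPM in *daf-2(e1370)* and 25.8 CPM in wild type, while the other 4 worm libraries held 41.9 to 112 CPM.

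Per kilobase of exon, *gld-1* was the most abundant of the 8 mRNAs in whole animals of both experiments. It had 54.4 ± 16.7 CPM per kb in *daf-2(e1370)* worms and 39.6 ± 9.80 CPM per kb in wild-type worms (SD, n = 3 each), and did not overlap the next gene in either group. In whole worms the genes in between were hard to order: from *gld-3* (18.9 CPM per kb), *glp-1* (18.1), *lst-1* (17.9), *nos-3* (15.7) and *gld-4* (12.6) down to *sygl-1* (10.1 CPM per kb) in *daf-2(e1370)*, each overlapped its neighbour. *gld-2* was lowest, at 4.24 ± 2.44 CPM per kb in *daf-2(e1370)* worms and 2.18 ± 1.07 CPM per kb in wild-type worms, where it overlapped *gld-4*. Lengths are those of all annotated exons merged, which for *gld-2* is 6283 bp over 6 transcripts. In CPM without length, *sygl-1* had the lowest mean in both worm groups.

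In nuclei the order was another one. In *daf-2(e1370)* nuclei *glp-1* came first with 19.005 ± 2.47 CPM per kb, then *lst-1* with 16.1 ± 4.09 and *gld-1* with 10.1 ± 2.52 CPM per kb, each overlapping its neighbour. In wild-type nuclei *gld-1* (10.2 ± 5.68 CPM per kb) and *glp-1* (9.47 ± 1.94 CPM per kb) overlapped at the top. *gld-4* was last in both, at 0.648 ± 0.252 CPM per kb in *daf-2(e1370)* nuclei and 0.557 ± 0.655 CPM per kb in wild-type nuclei. In the depletion table, which was normalized apart from the other and is not compared with it, *gld-1* had 274 to 289 CPM per kb in the 4 groups, *gld-2* had 20.2 to 21.9, and the other 6 genes lay between 44.9 and 76.0 CPM per kb.

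**Figure D1:**
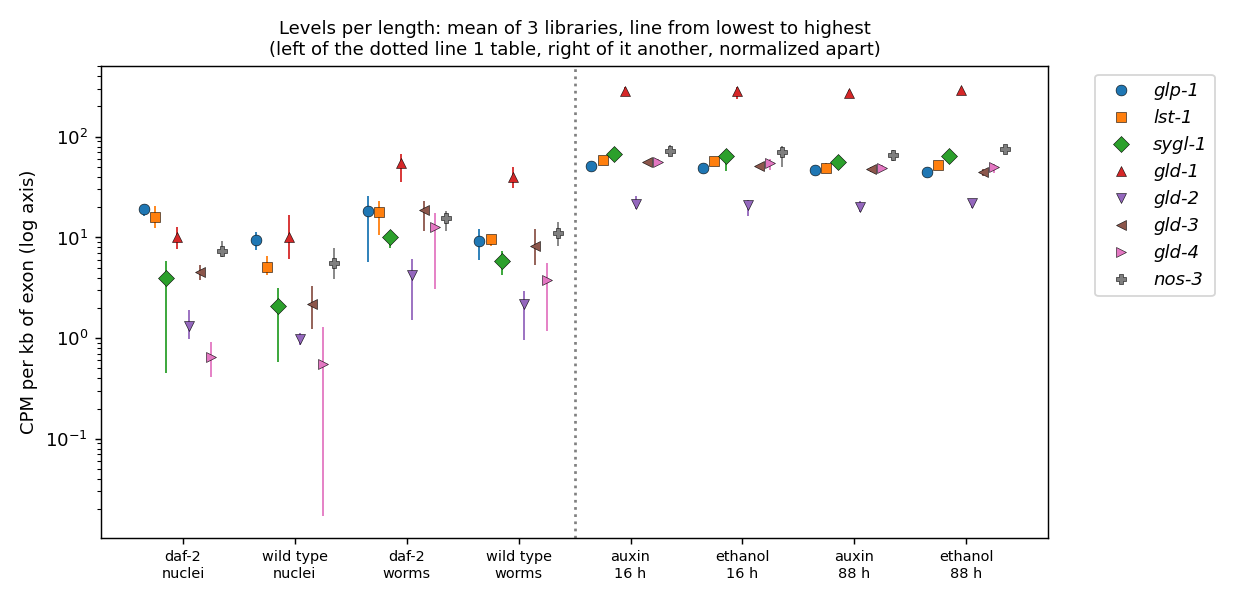
Levels of the 8 genes in CPM per kb of exon (log axis) in each of the 8 groups, as the mean of 3 libraries with a line from the lowest to the highest. *gld-1* stands alone at the top in whole animals. It lies near *glp-1* and *lst-1* in *daf-2(e1370)* nuclei, and near *glp-1* in wild-type nuclei, where *lst-1* is lower.

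The study set *daf-2(e1370)* nuclei against wild-type nuclei to see what reduced insulin/IGF-1 signaling does to germline transcripts. The receptor gene and *lst-1* had the clearest differences, with all *daf-2(e1370)* nuclei above all wild-type nuclei, yet both stopped just short of the threshold of 0.05. *glp-1* had 90.9, 85.4 and 70.3 CPM in *daf-2(e1370)* nuclei, against 41.0, 49.3 and 32.6 CPM in wild-type nuclei. Its log2 fold change was 1.02 ± 0.21 (SE; limma, adjusted p = 0.0531), a 2.02-fold difference with a 95% interval of 0.51 to 1.52 on the log2 scale. *lst-1* had 17.3, 28.6 and 21.3 CPM in *daf-2(e1370)* nuclei, against 6.25, 9.13 and 5.90 CPM in wild-type nuclei. Its log2 fold change was 1.66 ± 0.33 (limma, adjusted p = 0.0501), or 3.15-fold, with a 95% interval of 0.86 to 2.45. The groups do not overlap for either gene, and these are the genes with the smallest adjusted p among the 8. Of 7 alternative settings of the test, 3 brought *glp-1* and 4 brought *lst-1* past the threshold, with adjusted p from 0.0163 to 0.153 for *glp-1* and from 0.00982 to 0.0886 for *lst-1*. With each of the 6 libraries left out in turn, neither gene passed in any fit. The adjusted p then ran from 0.0669 to 0.138 for *glp-1* and from 0.0730 to 0.135 for *lst-1* (limma). Fewer cells of a type and less RNA per cell cannot be told apart in bulk libraries such as these.

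*sygl-1*, the other GLP-1 target, rested on few reads. It had 33, 54 and 2 reads in *daf-2(e1370)* nuclei (4.66, 4.86 and 0.381 CPM), against 16, 3 and 27 reads in wild-type nuclei (2.09, 0.486 and 2.65 CPM). A library in each group was near 0, the groups overlap, and the log2 fold change of 0.56 ± 1.35 (adjusted p = 0.851) leaves an interval of -2.68 to 3.81. At this depth no difference was detectable.

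Among the genes that act against the stem cell fate, *gld-3* had 20.7, 16.8 and 14.7 CPM in *daf-2(e1370)* nuclei, against 12.6, 8.02 and 4.75 CPM in wild-type nuclei. These groups do not overlap, and the log2 fold change was 1.14 ± 0.42 (adjusted p = 0.193). *gld-1* had 22.04, 28.3 and 17.2 CPM in *daf-2(e1370)* nuclei, against 37.1, 17.2 and 13.7 CPM in wild-type nuclei. Wild-type replicate 1 is the highest of the 6 libraries, and the log2 fold change of 0.10 ± 0.42 (adjusted p = 0.925) has an interval of -0.91 to 1.11. *nos-3* (log2 fold change 0.46) and *gld-2* (0.40) had overlapping groups, with adjusted p of 0.468 and 0.630. *gld-4* had 17, 40 and 10 reads in *daf-2(e1370)* nuclei, against 11, 36 and 0 reads in wild-type nuclei, where 0 reads allow a level of up to 0.287 CPM for counting error alone. Its groups overlap (adjusted p = 0.618), and no fold is given for it.

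Over the list, 0 of 8 members passed the threshold in nuclei (limma; 3 at an unadjusted p below 0.05, *glp-1*, *lst-1* and *gld-3*), where 3.85% of all 13613 genes tested passed. Groups did not overlap for 3 of the 8, beside 27% of all genes, and the median log2 fold change was 0.79 for the 8 and -0.15 for all genes tested. The 10 oocyte markers listed, all of them higher in sign and 1 past the threshold, summed to 1019 to 1898 CPM in *daf-2(e1370)* nuclei and 444 to 542 CPM in wild-type nuclei. The 13 sperm markers summed to 280 to 432 CPM in *daf-2(e1370)* nuclei and 581 to 869 CPM in wild-type nuclei, with 2 of 13 lower past the threshold. Of the 8 markers listed for the distal tip cell and somatic gonad, 5 were in the table and summed to 7.23 to 15.4 CPM in *daf-2(e1370)* nuclei and 15.7 to 19.5 CPM in wild-type nuclei, and the defining genes *lag-2*, *mig-24* and *nhr-67* were not analysed here. The part of these markers in the differences of the members was not tested.

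**Figure D2:**
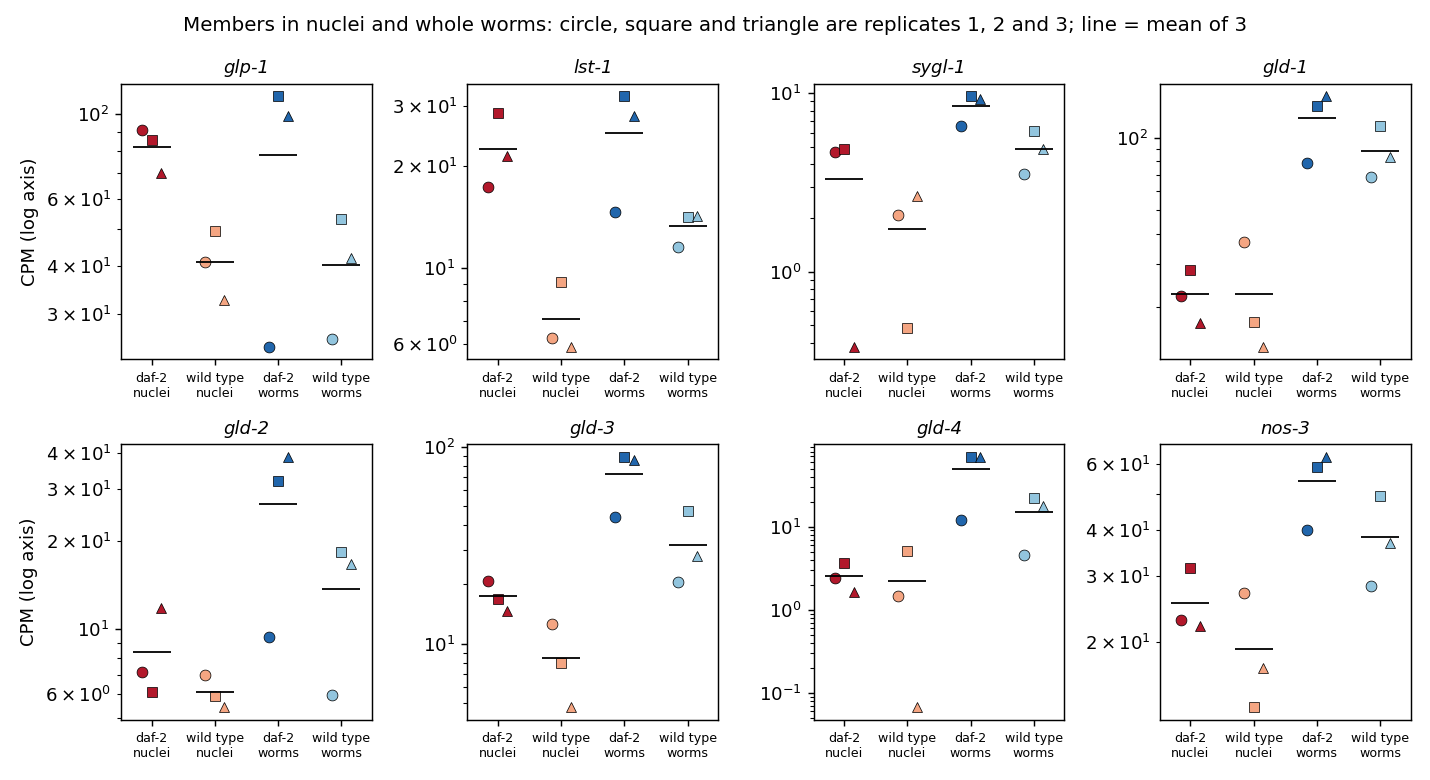
CPM (log axis) of each of the 8 genes in the 12 libraries of the nuclei experiment, with the replicate number as the marker shape and the mean of 3 as a line. The *daf-2(e1370)* nuclei lie above the wild-type nuclei for *glp-1*, *lst-1* and *gld-3*, and replicate 1 (circles) is the lowest whole worm library of each genotype in every panel; the *gld-4* library with 0 reads is drawn at the lowest value of the table.

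In whole worms the same comparison of genotypes gave 8 positive log2 fold changes among the 8 members, and 1 past the threshold, *gld-3*. *gld-3* had 44.1, 88.6 and 85.2 CPM in *daf-2(e1370)* worms, against 20.4, 46.8 and 27.7 CPM in wild-type worms. The lowest mutant library lies under the highest wild-type library, so the groups overlap, and the log2 fold change was 1.22 ± 0.37 (limma, adjusted p = 0.0435), a 2.32-fold difference. The call was lost when any of 4 of the 6 libraries was left out: wild-type replicate 1 (adjusted p = 0.170) or 3 (0.118), or *daf-2(e1370)* replicate 2 (0.161) or 3 (0.137), over a range of 0.0192 to 0.170. Without replicate 1 of both genotypes the log2 fold change was 1.27 (adjusted p = 0.0701), and the call was also lost under quantile scaling (0.0867), with a pseudocount of 1 (0.0528) and with all 12 libraries fitted (0.107).

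*lst-1* had 14.6, 32.0 and 28.1 CPM in *daf-2(e1370)* worms, against 11.5, 14.2 and 14.2 CPM in wild-type worms, and *sygl-1* had 6.54, 9.63 and 9.24 CPM, against 3.53, 6.15 and 4.86 CPM. For both GLP-1 targets every mutant library lies above every wild-type library, by little for the lowest one. The log2 fold changes were 0.83 ± 0.33 for *lst-1* (adjusted p = 0.0977) and 0.82 ± 0.34 for *sygl-1* (adjusted p = 0.111). *glp-1* itself had 24.6, 112 and 98.9 CPM in *daf-2(e1370)* worms, against 25.8, 53.0 and 41.9 CPM in wild-type worms. Replicate 1 was low in both groups, which overlap, and the log2 fold change was 0.75 ± 0.52 (adjusted p = 0.308). Without replicate 1 of *daf-2(e1370)* worms, *glp-1* (log2 fold change 1.45, adjusted p = 0.0337) and *lst-1* (1.18, adjusted p = 0.0299) passed the threshold and *sygl-1* did not (0.997, adjusted p = 0.0826). Without that of wild type instead, *glp-1* had 0.46 (adjusted p = 0.637) and *lst-1* 0.73 (adjusted p = 0.254), and without both *glp-1* had 1.16 (adjusted p = 0.0533), *lst-1* 1.08 (adjusted p = 0.0548) and *sygl-1* 0.79 (adjusted p = 0.136). Over all the libraries left out the adjusted p of *glp-1* ran from 0.0337 to 0.706 and that of *lst-1* from 0.0299 to 0.360.

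The poly(A) polymerase genes split in the same way by replicate. *gld-4* had 12.1, 68.4 and 69.1 CPM in *daf-2(e1370)* worms, against 4.62, 22.2 and 17.7 CPM in wild-type worms, and its log2 fold change was 1.66 ± 0.70 (adjusted p = 0.117). Without replicate 1 of both genotypes it was 1.79 (adjusted p = 0.0235) and without that of *daf-2(e1370)* alone 2.49 (adjusted p = 0.0407), over a range of 0.0235 to 0.388 for all the libraries left out. *gld-2* had 9.42, 31.9 and 38.7 CPM in *daf-2(e1370)* worms, against 5.96, 18.4 and 16.7 CPM in wild-type worms (log2 fold change 0.89 ± 0.56, adjusted p = 0.263). Without replicate 1 of *daf-2(e1370)* it was 1.52 (adjusted p = 0.0666), without that of wild type 0.37 (adjusted p = 0.687) and without both 1.005 (adjusted p = 0.0624). *gld-1* and *nos-3* had the smallest differences, 0.44 ± 0.31 (adjusted p = 0.327) and 0.51 ± 0.30 (adjusted p = 0.230) on the log2 scale. For *gld-1* this was 78.8, 135 and 148 CPM in *daf-2(e1370)* worms, against 68.6, 111 and 83.5 CPM in wild-type worms.

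Of all genes tested in whole worms, 18% passed the threshold and 6.81% did so as higher, and the groups of 40% did not overlap, against 2 of the 8 members. The median log2 fold change was 0.83 for the 8 members and -0.02 for all genes. Oocyte markers summed to 803 to 1488 CPM in *daf-2(e1370)* worms and 521 to 889 CPM in wild-type worms, with 10 of 10 positive and 3 past the threshold. Germ cell markers had 8 of 10 positive, a median log2 fold change of 0.53 and 0 past the threshold (limma; the smallest adjusted p was 0.0961, and 3 had an unadjusted p below 0.05). Intestine markers were higher for 7 of 10, with a median log2 fold change of 1.81, and summed to 3348 to 6919 CPM in *daf-2(e1370)* worms and 1290 to 2643 CPM in wild-type worms. Of 9 hypodermis markers 2 were higher and 1 lower (2346 to 2693 CPM summed in *daf-2(e1370)* and 1108 to 1822 CPM in wild type). Of 13 sperm markers 2 were lower (177 to 252 and 274 to 517 CPM), as was 1 of 10 neuron markers (81.0 to 91.4 and 94.3 to 157 CPM), and 0 of 10 body wall muscle markers passed (limma; 2 at an unadjusted p below 0.05). The ribosomal RNA share, lower in every *daf-2(e1370)* worm library, moved with the genotype as well. The part of these markers and of ribosomal RNA in the members' values was not tested.

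The difference between the genotype effects in nuclei and in whole worms was fitted as an interaction over all 12 libraries. It passed the threshold for 0 of the 8 members (limma; 0 also at an unadjusted p below 0.05), where 0.103% of all genes passed. The largest was that of *lst-1*, whose log2 fold change was greater by 0.82 ± 0.50 in nuclei (adjusted p = 0.537), with an interval of -0.25 to 1.90. The other 7 differences had adjusted p of 0.842 to 0.995, and their intervals reached at least 0.78 in either direction, so unequal effects of that size lie within them.

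Nuclei and whole worms differ in which RNA they hold, since nuclei carry newly made transcripts and whole worms add the mRNA stored in the cytoplasm and the RNA of the soma. The members divided in this comparison. *gld-1* had 22.04, 28.3 and 17.2 CPM in *daf-2(e1370)* nuclei, against 78.8, 135 and 148 CPM in the worms of that genotype, and in wild type 37.1, 17.2 and 13.7 CPM in nuclei, against 68.6, 111 and 83.5 CPM in worms. The nuclei were all below the worms. Its log2 fold change was -2.40 ± 0.37 in *daf-2(e1370)* (adjusted p = 0.000116) and -2.07 ± 0.37 in wild type (adjusted p = 0.000782).

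On the scaled values, *glp-1* showed nothing of the kind. It had 90.9, 85.4 and 70.3 CPM in *daf-2(e1370)* nuclei, against 24.6, 112 and 98.9 CPM in the worms, and 41.0, 49.3 and 32.6 CPM in wild-type nuclei, against 25.8, 53.0 and 41.9 CPM in the worms. The log2 fold change was 0.34 ± 0.46 in *daf-2(e1370)* (adjusted p = 0.558, interval -0.65 to 1.33) and 0.07 ± 0.46 in wild type (adjusted p = 0.922, interval -0.92 to 1.06). Its sign rests on worm replicate 1, without which the log2 fold change was -0.36 in *daf-2(e1370)* and -0.22 in wild type. It was also -0.08 in wild type without nuclei replicate 2, and -0.0068 in *daf-2(e1370)* under quantile scaling. Of all reads, ribosomal RNA included, *glp-1* took a smaller share in nuclei than in worms of equal replicate number, in both genotypes. In *daf-2(e1370)* it had 653, 961 and 448 reads of 17.9, 13.9 and 15.4 M in nuclei. In the worms it had 1616.5, 5856 and 6437 reads of 28.8, 22.8 and 27.6 M. The fold of *glp-1* thus depends on the scaling.

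*gld-3* was lower in nuclei by a similar factor as *gld-1*, with log2 fold changes of -2.01 ± 0.41 in *daf-2(e1370)* (adjusted p = 0.00101) and -1.93 ± 0.41 in wild type (adjusted p = 0.00242). *nos-3* was lower by less, -1.07 ± 0.32 (adjusted p = 0.0118) and -1.02 ± 0.32 (adjusted p = 0.0233). Leaving out wild-type nuclei replicate 2 or 3 or wild-type worm replicate 2 or 3 took *nos-3* past 0.05 in wild type, over a range of 0.00932 to 0.109, and leaving out *daf-2(e1370)* worm replicate 3 gave 0.0506 in the mutant. *gld-4*, with 0 to 40 reads per nuclei library, had 2.43, 3.62 and 1.64 CPM in *daf-2(e1370)* nuclei, against 12.1, 68.4 and 69.1 CPM in the worms (adjusted p = 0.0144, and 0.0554 or 0.0552 without worm replicate 2 or 3). In wild type it had 1.45 and 5.09 CPM and 0 reads in nuclei, against 4.62, 22.2 and 17.7 CPM in worms, with groups that overlap (adjusted p = 0.0229). The fitted log2 fold changes, -3.98 and -3.94, depend on the constant added to 0 reads, and the wild-type call was lost without nuclei replicate 3, the library at 0 (adjusted p = 0.0808), or without worm replicate 2 (0.0952) or 3 (0.0761), over a range of 0.00550 to 0.0952, and with only these groups fitted (0.0546).

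*gld-2* passed in *daf-2(e1370)*, where nuclei had 7.17, 6.10 and 11.8 CPM, against 9.42, 31.9 and 38.7 CPM in worms. The highest nuclei library lies above worm replicate 1, so the groups overlap, and the log2 fold change was -1.496 ± 0.55 (adjusted p = 0.0340), beside -1.007 ± 0.55 in wild type (adjusted p = 0.172). The call was lost without nuclei replicate 1 (adjusted p = 0.0777) or 2 (0.0964) or worm replicate 2 (0.126) or 3 (0.153), over a range of 0.00106 to 0.153, and under quantile scaling (0.117) or with only these groups fitted (0.0718). *lst-1* had -0.10 ± 0.36 in *daf-2(e1370)* (adjusted p = 0.821) and -0.93 ± 0.36 in wild type (adjusted p = 0.0556). With the replicate number, which pairs these libraries, as a block, *lst-1* in wild type had an adjusted p of 0.0368. *sygl-1* had -2.02 ± 0.93 (adjusted p = 0.0798) in *daf-2(e1370)* and -1.77 ± 0.93 in wild type (adjusted p = 0.155).

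So 5 of 8 members in *daf-2(e1370)* and 4 of 8 in wild type were lower in nuclei past the threshold, and 0 were higher (limma). These fits did not use the pairing of nuclei with worms. With it as a block, *lst-1* was also lower in wild type (limma, adjusted p = 0.0368), and no other member's call moved. Of all genes, 53.3% passed in *daf-2(e1370)*, 32% as lower, and 35.3% passed in wild type, 19.4% as lower. The median log2 fold change was -1.75 for the 8 and -0.63 for all genes in *daf-2(e1370)*, and -1.39 and -0.34 in wild type. Relative to these medians of all genes, *glp-1* stood 0.97 higher in *daf-2(e1370)* and 0.41 higher in wild type, and *gld-1* stood at -1.77 in *daf-2(e1370)* and -1.73 in wild type. The median of all genes in wild type was -0.08 under quantile scaling. Among intestine markers 10 of 10 were lower in nuclei of *daf-2(e1370)* and 8 of 10 in wild type. Oocyte markers were lower for 7 of 10 in *daf-2(e1370)* and 6 of 10 in wild type, and germ cell markers for 2 of 10 and 1 of 10. Body wall muscle markers were lower for 7 of 10 in each genotype, and higher for 2 of 10 in *daf-2(e1370)* and 0 of 10 in wild type. They summed to 893 to 1001 CPM in *daf-2(e1370)* nuclei and 1334 to 1861 CPM in the worms, and to 906 to 1004 CPM in wild-type nuclei and 1404 to 2669 CPM in the worms. Of the neuron markers 4 of 10 were higher and 2 lower in *daf-2(e1370)* (124 to 160 CPM summed in nuclei, 81.0 to 91.4 CPM in worms), and 0 higher and 1 lower in wild type (128 to 202 and 94.3 to 157 CPM). Somatic markers were thus measured in the nuclei libraries, and their part in the members' values was not tested.

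**Figure D3:**
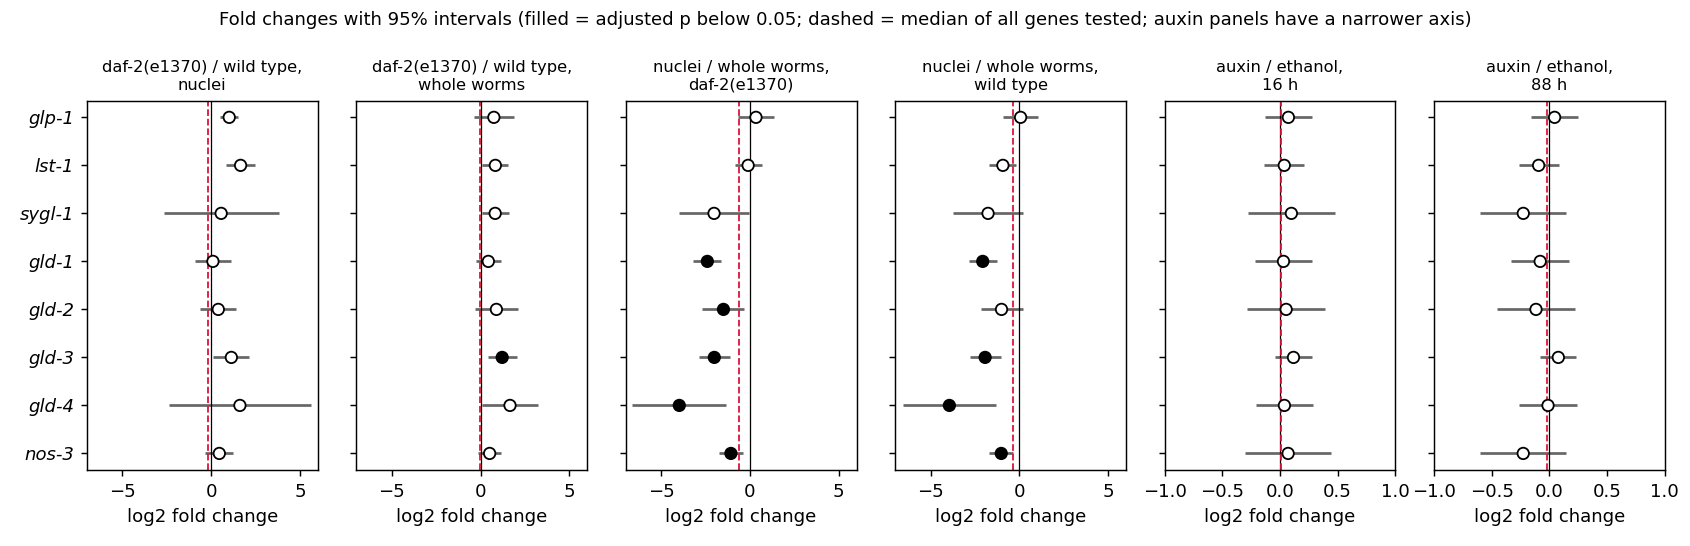
Log2 fold changes of the 8 genes with their 95% intervals in 6 comparisons, with filled points past an adjusted p of 0.05 and the median of all genes tested as a dashed line. *glp-1* and *lst-1* sit above that line in nuclei against worms of *daf-2(e1370)*, and the other members sit below it, *gld-4* the furthest. In wild type only *glp-1* sits above it. All auxin intervals, on a narrower axis, span 0.

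A difference between members within a library cancels what scales a whole library. Pairs of related members were taken in 6 comparisons, 30 tests in all. Each was an exact permutation test of 3 libraries against 3, two-sided, which cannot give a p below 0.1. It ignored any pairing of libraries by replicate number. In nuclei *glp-1* exceeded *gld-1* by 1.89 ± 0.26 in *daf-2(e1370)* and by 0.97 ± 0.73 in wild type on the log2 scale of CPM (SD, n = 3 each), while in worms it stood at -0.85 ± 0.74 and -1.16 ± 0.22 relative to *gld-1*. The shift between nuclei and worms was 2.74 in *daf-2(e1370)* and 2.13 in wild type, and within nuclei the shift between the genotypes was 0.92. No groups overlapped in these 3 comparisons, and each had the smallest p possible (exact permutation test, p = 0.1, adjusted p = 0.3 over the 30).

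*gld-1* minus *nos-3* was -0.19 ± 0.16 in *daf-2(e1370)* nuclei and 1.14 ± 0.14 in the worms, and 0.17 ± 0.42 in wild-type nuclei and 1.21 ± 0.06 in the worms. These groups did not overlap either (exact permutation test, p = 0.1, adjusted p = 0.3). *lst-1* and *sygl-1* respond to the same receptor. In whole worms *lst-1* exceeded *sygl-1* by 1.498 ± 0.30 in *daf-2(e1370)* and by 1.49 ± 0.26 in wild type (exact permutation test, p = 0.9). With 3 libraries in each group this p does not show equal distances. In *daf-2(e1370)* nuclei the excess was 3.42 ± 2.09, apart from the worms (exact permutation test, p = 0.1, adjusted p = 0.3). *sygl-1* had 2 reads in 1 of these nuclei libraries. *gld-2* minus *gld-4* was -0.76 ± 0.38 in *daf-2(e1370)* worms and 0.00 ± 0.33 in wild-type worms, with groups apart (exact permutation test, p = 0.1, adjusted p = 0.3). In *daf-2(e1370)* nuclei it was 1.72 ± 1.06, also apart from the worms of that genotype (exact permutation test, p = 0.1, adjusted p = 0.3). Groups stood apart in 10 of the 30 comparisons, each with this same p, and 0 of the 30 passed after adjustment.

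The depletion experiment asked what loss of HSF-1 from the germline does in *daf-2(e1370)* animals. The members were measured well here, with 1067 to 22134 reads per gene and library, and 0 of the 8 passed the threshold at either time. At 16 h *glp-1* had 215, 217 and 228 CPM with auxin, against 191, 222 and 215 CPM with ethanol. *sygl-1* had 54.5, 51.8 and 63.1 CPM with auxin, against 37.9, 61.5 and 62.2 CPM with ethanol, where replicate 1 is low. That ethanol library was also the lowest of its group for *nos-3*, *gld-1*, *gld-2*, *gld-3*, *gld-4* and *glp-1*. *gld-1* had 629, 594 and 690 CPM with auxin, against 527, 668 and 687 CPM with ethanol, and a log2 fold change of 0.03 ± 0.11.

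The groups do not overlap at 16 h for *gld-3* alone among the 8, with 209, 216 and 217 CPM with auxin, against 187, 202 and 203 CPM with ethanol, where the difference was 0.12 ± 0.07 on the log2 scale (limma, unadjusted p = 0.128, adjusted p = 1.00). For comparison, the groups of 10.9% of all genes do not overlap. The 8 log2 fold changes lay between 0.03 and 0.12, and their 95% intervals between -0.30 and 0.47. With 0 of 8 members past the threshold (limma; 0 at an unadjusted p below 0.05), beside 0.0792% of all 12634 genes, larger changes lie outside the intervals.

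After 88 h from egg lay *sygl-1* had 42.3, 53.0 and 44.3 CPM with auxin, against 53.6, 57.5 and 51.5 CPM with ethanol. *nos-3* had 196, 251 and 225 CPM with auxin, against 240, 269 and 274 CPM with ethanol. Both sets overlap, and both genes had the lowest log2 fold changes of the 8, -0.23 ± 0.17 each (adjusted p = 0.983 and 0.979). *gld-1* had 546, 653 and 624 CPM with auxin, against 587, 678 and 659 CPM with ethanol (log2 fold change -0.08 ± 0.11), and *glp-1* had 182, 224 and 197 CPM with auxin, against 176, 200 and 208 CPM with ethanol (0.05 ± 0.09). Again 0 of 8 passed (limma; 0 at an unadjusted p below 0.05), beside 0.103% of all genes, and the intervals reached from -0.60 to 0.25. Within libraries at 88 h, *glp-1* minus *gld-1* was -1.60 ± 0.06 with auxin and -1.72 ± 0.05 with ethanol, and *gld-1* minus *nos-3* was 1.44 ± 0.06 with auxin and 1.30 ± 0.03 with ethanol (log2 scale of CPM, SD, n = 3 each). The groups do not overlap for these pairs, by differences of 0.12 and 0.15 (exact permutation test, p = 0.1, adjusted p = 0.3 over the 30). Averaged over both times, 0 of 8 passed and the log2 fold changes lay between -0.08 and 0.10, beside 0.142% of all genes. The change of the auxin effect between the times was negative in sign for 8 of 8, between -0.33 and -0.03, beside a median of -0.02 over all genes. It passed for 0 of the 8 (limma, adjusted p of 1.00 for each) and for 0% of all genes. Without 16 h ethanol replicate 1 the 16 h log2 fold changes were 0.0078 for *glp-1*, -0.090 for *gld-1* and -0.079 for *gld-4*. They lie below the 88 h values of these genes (0.046, -0.079 and -0.011), so their negative change rests on that library. The other members kept a negative sign.

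**Figure D4:**
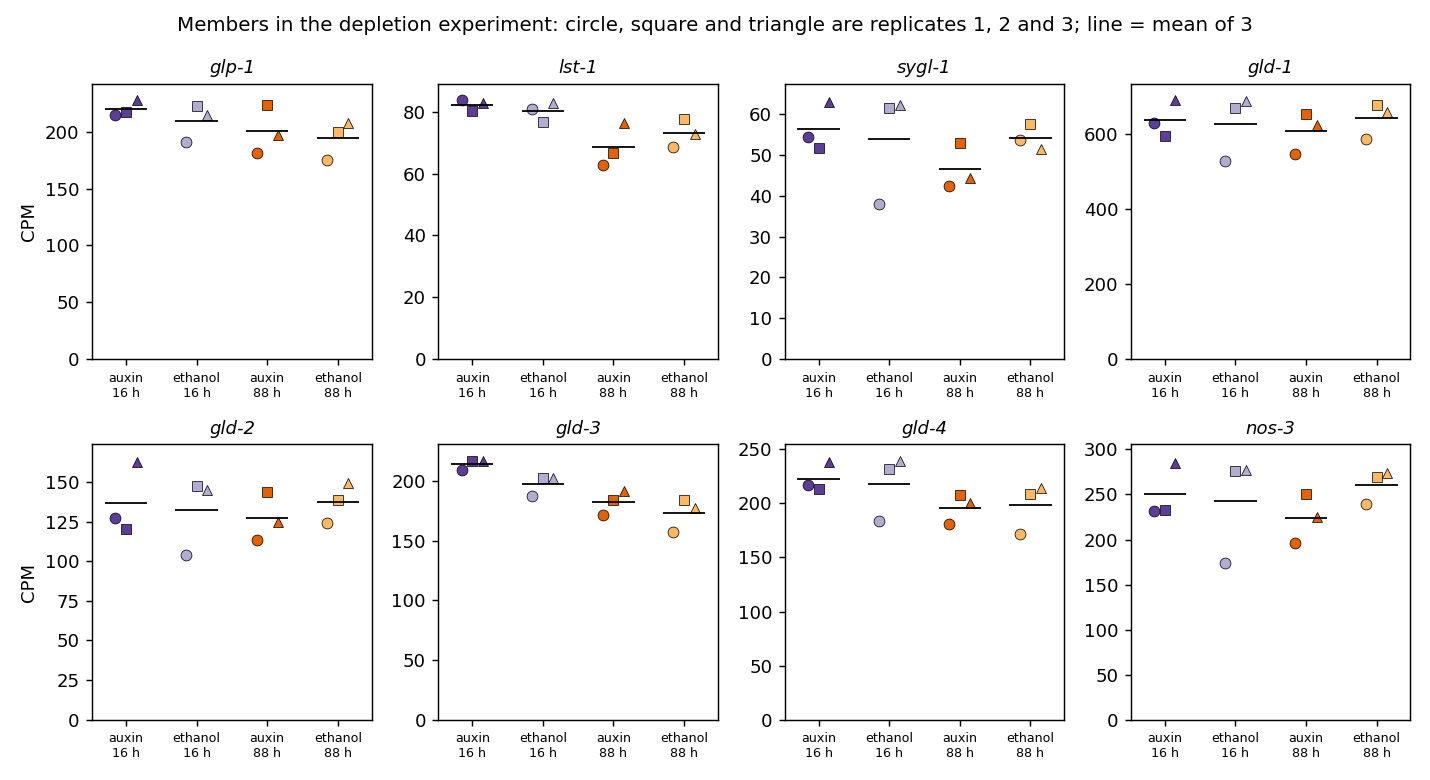
CPM (linear axis from 0) of each of the 8 genes in the 12 libraries of the depletion experiment, with the replicate number as the marker shape and the mean of 3 as a line. Auxin and ethanol libraries lie at like heights at both times, and replicate 1 is the lowest 16 h ethanol library in 7 of the 8 panels.

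The ethanol controls of the 2 schedules, 88 h against 16 h, differ in more than time, since mock treatment began at egg lay in one and in young adults in the other. Past the threshold were 0 of 8 members (limma; 1 at an unadjusted p below 0.05), beside 9.89% of all genes. That 1 was *gld-3*, with 157, 184 and 177 CPM at 88 h, against 187, 202 and 203 CPM at 16 h. The 88 h libraries were all lower, and the log2 fold change was -0.19 ± 0.07 (adjusted p = 0.0871, over a range of 0.0279 to 0.194 in 7 alternatives). Groups did not overlap for 37.1% of all genes. The other 7 log2 fold changes lay between -0.14 and 0.14. Sperm markers were positive for 12 of 12, with 3 past the threshold, and summed to 261 to 644 CPM at 88 h, against 22.6 to 170 CPM at 16 h. Body wall muscle markers were positive for 10 of 10, with 6 past it (4038 to 5985 CPM at 88 h, against 2282 to 2500 CPM at 16 h). Of the distal tip cell and somatic gonad markers 5 of 5 were positive and 1 passed (41.6 to 56.2 CPM, against 31.9 to 33.6 CPM), and 4 of 9 hypodermis and 2 of 10 intestine markers were higher. The part of these markers in the members' values was not tested.

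The members work with many other germline proteins, of which 83 genes were listed in 8 groups and 80 tested in the nuclei table. In nuclei, 6 of the 80 were higher in *daf-2(e1370)* than in wild type past the threshold and 0 were lower, beside 1.34% of all genes higher. Among cell cycle genes of the progenitor zone, 2 of 12 were higher. The B-type cyclin gene *cyb-3* had 205 ± 39.7 CPM in *daf-2(e1370)* nuclei and 53.9 ± 21.2 CPM in wild-type nuclei (SD, n = 3 each; log2 fold change 1.99, adjusted p = 0.0329), and *pcn-1*, which encodes the replication clamp PCNA, had 208 ± 48.1 and 89.8 ± 11.5 CPM (adjusted p = 0.0359). Among mRNAs known to be bound by GLD-1, 2 of 12 were higher. *spn-4*, a maternal RNA-binding protein gene, had 320 ± 26.4 CPM in *daf-2(e1370)* nuclei and 98.1 ± 21.9 CPM in wild-type nuclei (log2 fold change 1.73, adjusted p = 0.0314), and *oma-1*, needed for oocyte maturation, had 60.1 ± 8.28 and 25.9 ± 5.10 CPM (adjusted p = 0.0371).

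Among the partners of the GLD proteins, 2 of 9 were higher in *daf-2(e1370)* nuclei. *rnp-8*, an RNA-binding partner of GLD-2, had 91.4 ± 11.8 CPM in *daf-2(e1370)* nuclei and 44.1 ± 7.37 CPM in wild-type nuclei (log2 fold change 1.06, adjusted p = 0.0395), and the Nanos-family gene *nos-2* had 22.5 ± 10.6 and 3.18 ± 0.903 CPM (log2 fold change 2.75, adjusted p = 0.0371). The Notch pathway, PUF repressor, deadenylase, meiotic entry and sex determination groups had 0 past the threshold in nuclei, out of 13, 5, 9, 14 and 6 genes. Their highest genes were the Notch ligand gene *apx-1* (147 ± 16.95 CPM in *daf-2(e1370)* and 87.3 ± 19.01 CPM in wild type, adjusted p = 0.0942) and *ntl-4*, a subunit of the CCR4-NOT complex (433 ± 81.1 and 315 ± 46.5 CPM, adjusted p = 0.247). Over the lists, 66 of the 80 log2 fold changes were positive.

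In whole worms 8 of the 80 were higher in *daf-2(e1370)* and 0 were lower. They are *sel-12*, a presenilin gene of the Notch pathway (3.36 ± 1.005 CPM in *daf-2(e1370)* and 1.08 ± 0.585 CPM in wild type), the PUF genes *puf-11* (97.5 ± 31.1 and 46.8 ± 11.7 CPM) and *puf-8* (48.6 ± 1.68 and 25.7 ± 11.9 CPM), *nos-2* (30.4 ± 8.60 and 12.5 ± 5.57 CPM), the cyclin D gene *cyd-1* (1.32 ± 0.325 and 0.415 ± 0.205 CPM), the synaptonemal complex gene *syp-2* (35.6 ± 9.07 and 14.95 ± 7.29 CPM), *him-8*, which acts in X chromosome pairing (27.9 ± 7.501 and 12.9 ± 5.66 CPM), and *pos-1*, an mRNA bound by GLD-1 (129 ± 39.4 and 56.7 ± 21.9 CPM). The adjusted p of these 8 ran from 0.0283 to 0.0486, and of all genes 6.81% were higher. The 12 mRNAs bound by GLD-1 were all positive in sign, with a median log2 fold change of 0.84, and 4 of them (*rme-2*, *oma-1*, *oma-2* and *puf-5*) are also among the oocyte markers.

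Between nuclei and worms the lists held calls in both directions. In *daf-2(e1370)*, 17 of 80 were higher in nuclei and 40 lower, beside 21.3% and 32% of all genes, and in wild type 13 were higher and 30 lower, beside 15.9% and 19.4%. All 5 PUF genes passed in *daf-2(e1370)*, in opposite directions. *fbf-1* and *fbf-2*, the partners of LST-1 and SYGL-1, were higher in nuclei, with 42.0 ± 19.6 and 35.98 ± 13.8 CPM in nuclei and 8.11 ± 2.02 and 6.69 ± 0.715 CPM in worms (log2 fold changes 2.28 and 2.36), and were so in wild type also (1.40 and 1.46). *puf-8* was lower in nuclei, with 4.14 ± 3.22 CPM in nuclei and 48.6 ± 1.68 CPM in worms (log2 fold change -3.87), as was *puf-11* (-1.83). Of 14 meiotic entry and axis genes, 10 were lower and 1 higher in *daf-2(e1370)* nuclei, and 6 lower and 0 higher in wild-type nuclei, *him-8* and *syp-2* among them.

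Of the Notch pathway genes, *apx-1* had 147 ± 16.95 CPM in *daf-2(e1370)* nuclei and 21.9 ± 4.40 CPM in the worms (log2 fold change 2.76), and the epsin gene *epn-1* had 86.6 ± 17.6 and 9.87 ± 2.36 CPM (3.15). The gamma-secretase subunit genes *aph-1* and *aph-2* were lower in wild-type nuclei (-4.37 and -2.32), and the other Notch receptor gene, *lin-12*, was higher there, with 10.9 ± 2.76 CPM in nuclei and 3.03 ± 1.84 CPM in worms (2.00). In the depletion experiment 0 of 81 listed genes passed the threshold with auxin at 16 h, at 88 h or over both (limma), and in the ethanol controls only *syp-2* did, with 46.9 ± 4.36 CPM at 88 h and 58.0 ± 0.420 CPM at 16 h (adjusted p = 0.0325).

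**Figure D5:**
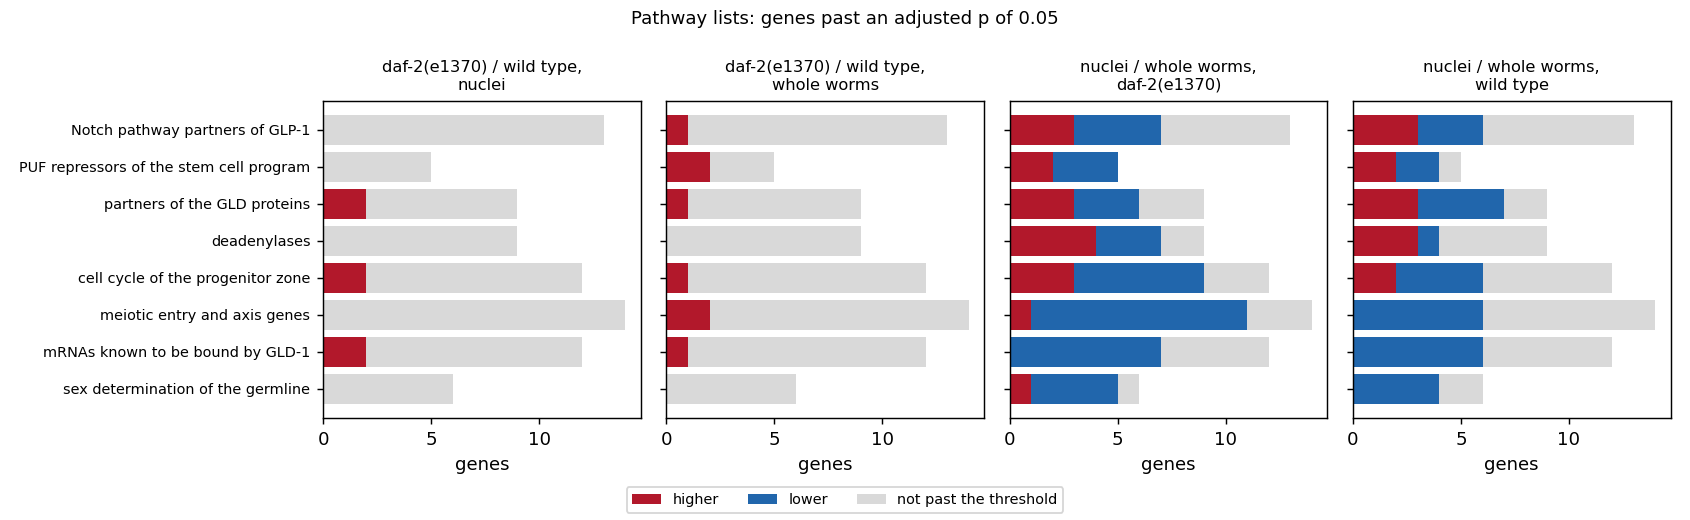
Number of genes in each of the 8 pathway lists that were higher, lower or not past an adjusted p of 0.05 in 4 comparisons. Between genotypes only higher calls appear, 6 in nuclei and 8 in worms, while nuclei against worms gives calls in both directions, with no higher call for the mRNAs bound by GLD-1.

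How alike the members were was described over the 24 libraries, each centred on the mean of its table, so that genotype, nuclei and depth are shared by all points. *gld-1* went most closely with *nos-3* (r = 0.91), *gld-3* (0.90) and *gld-4* (0.85), and *gld-3* with *gld-4* (0.91). *glp-1* was close to *lst-1* (0.73) but not to *gld-1* (0.11) or *sygl-1* (0.16). In the 12 depletion libraries alone *glp-1* had r = 0.49 with *lst-1*, 0.62 with *sygl-1* and 0.70 with *gld-1*, and *gld-4* was the member nearest to it (0.90). There *gld-1* had 0.95 with *nos-3*, 0.39 with *gld-3* and 0.82 with *gld-4*, and *gld-3* had 0.80 with *gld-4*. Over all 12029 genes compared, those nearest to *glp-1* were *pbrm-1* (r = 0.95), *mtm-3* (0.93) and *mes-4* (0.93), the last a chromatin regulator of germ cells and one of the germ cell markers listed. Nearest to *lst-1* were *wee-1.3* (0.95), a kinase gene that restrains oocyte maturation, *strd-1* (0.94) and *mes-2* (0.93), and nearest to *gld-1* were *cash-1* (0.97), *cgh-1* (0.97), an RNA helicase gene of germ granules, and *cct-1* (0.97). *gld-3* was nearest to *pos-1* (0.98). In the depletion libraries alone these values were 0.88, 0.96 and 0.91 for *pbrm-1*, *mtm-3* and *mes-4* with *glp-1*. They were 0.34, 0.58 and 0.63 for *wee-1.3*, *strd-1* and *mes-2* with *lst-1*. For *cash-1*, *cgh-1* and *cct-1* with *gld-1* they were 0.53, 0.92 and 0.51, and for *pos-1* with *gld-3* 0.76. The correlations are descriptions over libraries of a few groups.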

How the data were processed

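RNA was measured in 24 poly(A)-selected libraries of pooled animals or nuclei. Per the study's methods, the authors aligned reads with STAR to WBcel235 (ce11), counted them with featureCounts, sharing multimapped and overlapping reads as fractions, and used edgeR to scale the counts, and they deposited log2 CPM values, 1 table per experiment, without genes below 1 CPM in more than 75% of its libraries. The versions of featureCounts and edgeR are not given in the sources used here, and the counting settings listed hold no strand option although the libraries kept the strand. The authors' tables of fold changes, scores and p-values were not used.

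Values were used as deposited. Genes that reached 1 CPM in no fewer than 25% of the libraries were tested with limma 3.58.1 (R 4.3.3; lmFit and eBayes with trend, two-sided, Benjamini-Hochberg over all genes kept, threshold 0.05), which was also tested on simulated data. The 2 genotype comparisons used their own 6 libraries, and the others all 12 of the table. The main fits held group means only, so replicate pairs entered only the alternative with a replicate block. Reads were read back from the spacing of low values (tolerance 0.03 of a read), so depth covers counting error only. Alternatives were other scalings, filters, a pseudocount of 1, other libraries in the fit, a replicate block and each library left out. Equal replicate numbers were taken to pair auxin with ethanol libraries (correlations of deviations 0.121 to 0.624 at 16 h and 0.274 to 0.664 at 88 h), although unequal numbers reached 0.182 and 0.421. They also paired nuclei with worms, at 0.113 to 0.138 in wild type and 0.0729 to 0.0966 in *daf-2(e1370)*. Unequal numbers there reached no more than 0.0190 and -0.0352. Named genes are all 8 members and, per pathway list and comparison, up to 4 past the threshold with the largest change, or the 2 of highest level where none passed; others were chosen after their values were seen. The members and lists were chosen with earlier results of these data known. Python 3.11.15 (scipy 1.17.1) ran the permutation tests.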

Additional observations from a re-analysis of the deposited data

How the results depend on the processing

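Nuclei libraries were shallow for the members: *gld-4* had 0 to 40 reads and *sygl-1* 2 to 54, so their differences are limited by depth. Of the single-member values under alternatives that leave out no replicate, 423 kept their direction and their side of the threshold, 19 crossed to past it, 7 crossed to short of it and 13 changed sign, and of those without 1 library 353, 6, 18 and 55 did. All 210 alternatives of the differences within a library moved by less than the larger SD of the groups compared. That measure allows a change of sign where groups overlap. The cause of the changes was not tested. Leaving out replicate 1 of both worm groups was chosen after seeing the data.

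The number of members past the threshold in nuclei between genotypes was 2 under median-of-ratios scaling, 2 under quantile scaling, 2 with at least 1 CPM in every library and 1 with all 12 libraries in the fit, instead of 0. With libraries left out that number stayed at 0. In worms it was 0 under quantile scaling, 0 with a pseudocount of 1, 0 with all 12 libraries and 5 with a replicate block, instead of 1, and 0 to 4 with libraries left out. In the ethanol controls it was 1 under quantile scaling and 1 with the replicate block, instead of 0. With libraries left out it was 2 to 6 in wild type and 2 to 5 in *daf-2(e1370)* for nuclei against worms, instead of 4 and 5.

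Signs changed under quantile scaling for *lst-1* at 16 h (-0.0079), *gld-1* (0.049) and *gld-4* (0.0031) at 88 h, *gld-1* in the controls (-0.16), *glp-1* (-0.0068) and *lst-1* (0.25) in *daf-2(e1370)* nuclei against worms, and *glp-1* (-0.035), *sygl-1* (0.45) and *nos-3* (0.069) in the difference of genotype effects. *gld-4* at 88 h was 0.0027 under median-of-ratios scaling.

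Without single libraries the log2 fold changes at 16 h were -0.14 to 0.22 for *sygl-1*, -0.090 to 0.10 for *gld-1*, -0.11 to 0.14 for *gld-2*, -0.079 to 0.11 for *gld-4* and -0.15 to 0.18 for *nos-3*. At 88 h they were -0.035 to 0.12 for *glp-1* and -0.11 to 0.05 for *gld-4*. In the controls they were -0.19 to 0.17 for *sygl-1*, -0.082 to 0.11 for *gld-1*, -0.095 to 0.16 for *gld-2* and -0.087 to 0.25 for *nos-3*. Between genotypes in nuclei they were -0.20 to 1.78 for *sygl-1*, -0.20 to 0.52 for *gld-1* and -0.16 to 2.96 for *gld-4*. For nuclei against worms *glp-1* was at -0.22 to 0.30 in wild type and -0.36 to 0.73 in *daf-2(e1370)*, where *lst-1* was at -0.45 to 0.11. The difference of genotype effects was -0.43 to 0.66 for *glp-1*, -1.02 to 0.96 for *sygl-1*, -0.63 to 0.087 for *gld-1*, -1.12 to 0.029 for *gld-2*, -0.44 to 0.26 for *gld-3*, -1.82 to 1.30 for *gld-4* and -0.28 to 0.23 for *nos-3*.

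Over all genes, the count past the threshold was 10 at 16 h (6 to 9 with libraries left out), 13 at 88 h (8 with only the 2 groups fitted, 8 to 10 with libraries left out), 18 over both times (29 with the block) and 1250 in the controls (2533 under quantile scaling, 786 with at least 1 CPM in every library, 2069 with the pseudocount, 3164 with the block, 0 with only the 2 groups, 0 to 2359 with libraries left out). It was 524 in nuclei between genotypes (964, 1089 with at least 1 CPM in every library, 0 with the block, 1791 with all 12 libraries, 0 to 305 with libraries left out) and 2453 in worms (1588, 1405, 4122 with the block, 798, and 340 to 3588). For nuclei against worms it was 4808 in wild type (3150 to 4293) and 7256 in *daf-2(e1370)* (4442 with at least 1 CPM in every library). The difference of genotype effects had 14 (26 under quantile scaling, 52 with at least 1 CPM in every library, 24 with the pseudocount, 1 with the block, 0 to 181 with libraries left out).

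Replicate numbers were not taken to pair the other groups (correlations 0.047 to 0.427 in the controls, 0.0047 to 0.0411 between nuclei and -0.094 to 0.229 between worms), so the block is only an alternative there. In paired comparisons the block moved no member's call except that of *lst-1* in wild-type nuclei against worms.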
